A study of Mus musculus with 12 samples.

Results

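The 6 genes described here, Ren1, Agt, Ace, Agtr1a, Enpep and Mme, belong to the renin-angiotensin system. They were chosen by symbol from the 26264 genes of the deposited count tables, and all 6 were present. Glomeruli were collected from 8-week-old male mice of 2 substrains, BALB/cAjcl (called Ajcl below) and BALB/cByJcl (called ByJcl), either untreated (baseline) or on Day 5 after 1 intravenous dose of 10 mg/kg adriamycin (ADR, doxorubicin), a drug that injures podocytes. Each of the 4 groups, Ajcl baseline, ByJcl baseline, Ajcl Day 5 and ByJcl Day 5, had 3 RNA-seq libraries. The mice carried no transgene or engineered allele, and the glomeruli were pulled out with magnetic beads that had lodged in their capillaries, so other kidney cells can remain beside them. The sample labels call the baseline mice untreated, while the protocol also speaks of control animals given saline, so whether the baseline mice had an injection is not settled by the labels. The labels do not say whether a library came from 1 mouse or from several, so the p-values below measure the spread between libraries.

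In this system renin, the product of Ren1, cuts angiotensinogen, the product of Agt, into angiotensin I, and angiotensin-converting enzyme (Ace) turns that into angiotensin II. Angiotensin II acts through its type 1 receptor, which in the mouse kidney is mostly the Agtr1a product, to narrow vessels and raise pressure in the glomerulus. Membrane peptidases end the signal: aminopeptidase A (Enpep) trims angiotensin II, and neprilysin (Mme) cuts angiotensin peptides and other small peptides. In the kidney renin is made by the juxtaglomerular cells of the afferent arteriole and angiotensinogen by proximal tubule, while Enpep and Mme are known from podocytes and from the tubular brush border.

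Library totals ranged from 42198416 to 54687045 counts. Levels are given as CPM (the counts of a gene relative to the library total, scaled to a common size) after TMM scaling, edgeR's correction for library composition, and 3 counts, taken as the floor of detection, correspond to 0.0546 to 0.0693 CPM per library. Ajcl Day 5 replicate 1 was left out of the tests because the study set it aside for reduced glomerular purity. It held 10027 summed CPM of 13 proximal tubule markers against 651 to 7062 CPM in the other 11 libraries. All 10 podocyte markers were measured in the glomeruli, with summed levels of 7506 to 21848 CPM over the 12 libraries. Proximal tubule markers were lower in ByJcl than in Ajcl at both times, with medians of −0.97 (baseline) and −1.005 (Day 5) on the log2 scale, and 0 of 13 passed the test in either comparison. At an unadjusted p below 0.05 there were 2 and 0 such genes.

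Per length of exon, the enzyme that removes angiotensin II was the most abundant member and the 2 genes at the start of the pathway were near the floor. Over the 11 libraries tested, Enpep averaged 165 CPM per kb of exon, Agtr1a 52.4, Mme 26.4 and Ace 8.52 CPM per kb. Ren1 averaged 0.0537 CPM per kb and Agt 0.0289 CPM per kb. The ranges over the 11 libraries did not overlap between Enpep (77.9 to 248 CPM per kb), Agtr1a (42.1 to 70.7 CPM per kb), Mme (19.1 to 33.0 CPM per kb) and Ace (6.19 to 11.1 CPM per kb). Ren1 and Agt overlapped each other, and each was at 0 in at least 1 library. The length used is that of all annotated exons of a gene, which need not be that of the expressed transcript. In CPM without this scaling, Mme averaged 313 (227 to 391) and Agtr1a 242 (194 to 326), and these 2 ranges overlapped.

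**Figure D1:**
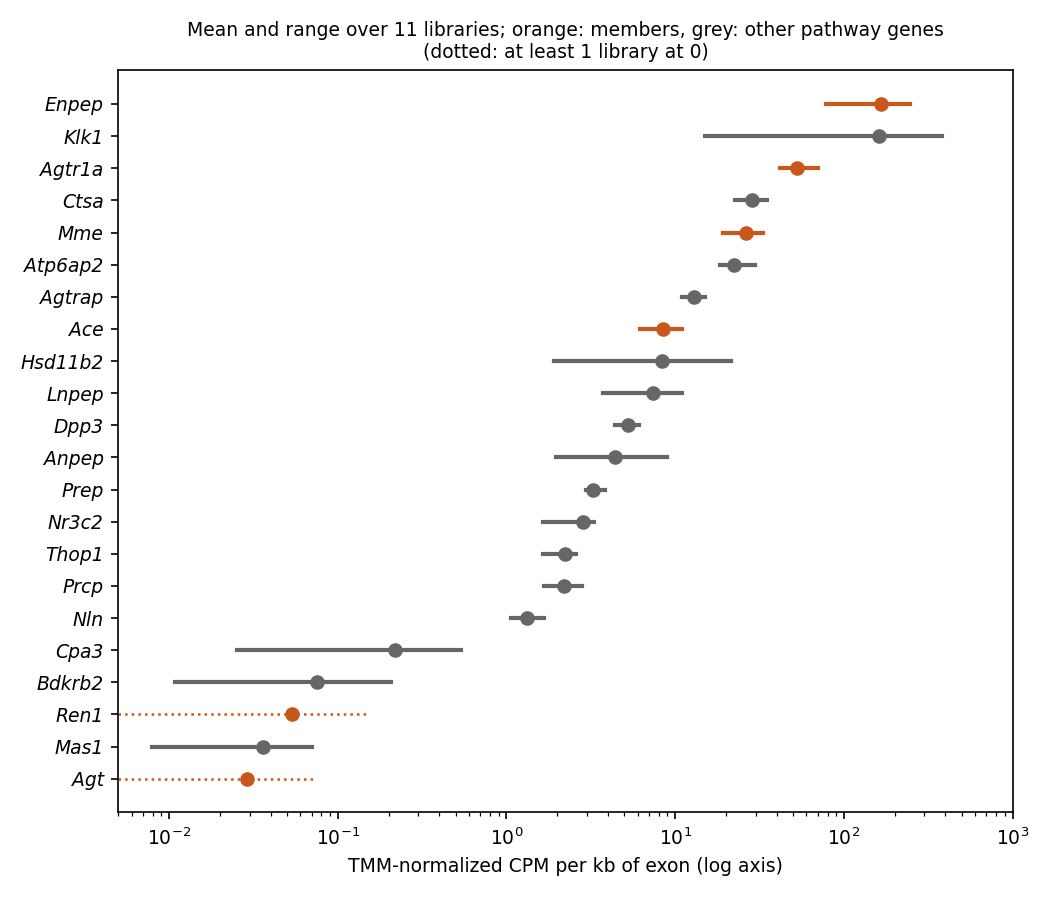
Levels of the 6 members (orange) and of the other reported angiotensin pathway genes detected in all 11 libraries (grey), in TMM-normalized CPM per kb of exon on a log axis; points are means over 11 libraries and lines span the lowest to the highest library. Enpep lies at the top at 165 CPM per kb, and Ren1 and Agt lie at the bottom with dotted lines, because at least 1 library was at 0.

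The promoters of the most abundant member and of the 2 members near the floor are shown because these genes mark the ends of that range. They come from the RefSeq table of build GRCm38.p6, cover 250 bases before to 50 bases after the annotated start, and read along the gene's strand. The windows are chr3:129332700-129332999 on the minus strand for Enpep, chr1:133350424-133350723 on the plus strand for Ren1 and chr8:124569657-124569956 on the minus strand for Agt. Capitals mark TATAAA, the core of a TATA box, searched on both strands (TTTATA is its reverse complement).
Enpep: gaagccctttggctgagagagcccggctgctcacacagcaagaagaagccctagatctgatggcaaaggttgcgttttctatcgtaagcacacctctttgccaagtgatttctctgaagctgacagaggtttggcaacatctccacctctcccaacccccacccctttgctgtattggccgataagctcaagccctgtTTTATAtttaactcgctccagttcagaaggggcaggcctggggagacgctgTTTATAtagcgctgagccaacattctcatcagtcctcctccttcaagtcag
Ren1: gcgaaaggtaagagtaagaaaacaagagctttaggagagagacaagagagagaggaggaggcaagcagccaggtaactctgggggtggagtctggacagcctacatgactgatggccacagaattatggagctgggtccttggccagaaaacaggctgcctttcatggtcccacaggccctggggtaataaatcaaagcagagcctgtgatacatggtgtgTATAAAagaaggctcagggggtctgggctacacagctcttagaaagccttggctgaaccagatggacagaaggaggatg
Agt: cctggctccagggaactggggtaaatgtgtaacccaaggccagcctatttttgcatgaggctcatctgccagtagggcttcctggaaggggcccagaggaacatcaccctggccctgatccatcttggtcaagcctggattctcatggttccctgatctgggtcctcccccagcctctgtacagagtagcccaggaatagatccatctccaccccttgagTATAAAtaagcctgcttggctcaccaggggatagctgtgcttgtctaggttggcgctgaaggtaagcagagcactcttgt
The motif began 29 bases before the start in Ren1 and 30 bases before it in Agt, on the gene's strand in both. In Enpep it lay on the opposite strand, beginning 52 bases and 1 base before the start. TATAAA occurred on either strand in 13.6% of the 32851 windows of the table. Of the other members with a window, Ace had the motif on the opposite strand 31 bases before the start in 1 of 2 windows, and the 3 windows of Mme held none. CCAAT, searched in the same way, was found 77 bases before the start of Enpep on the opposite strand and is present in 37.4% of windows. Agtr1a was not matched in the table.

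Ren1 (chr1:133278248-133288063, plus strand, GRCm39) was barely detected in any group. It had 8, 3 and 0 counts in Ajcl baseline, 2, 3 and 3 in ByJcl baseline, 0, 3 and 8 in Ajcl Day 5 and 4, 11 and 0 in ByJcl Day 5. The 12 libraries thus held between 0 and 11 counts each, and the highest was ByJcl Day 5 replicate 2, at 0.253 CPM. The 3 libraries at 0 allow up to 0.0641 CPM, the level of 3 counts, in Ajcl baseline replicate 3, 0.0643 CPM in Ajcl Day 5 replicate 1 and 0.0641 CPM in ByJcl Day 5 replicate 3, for counting error only. These limits take each count as 1 fragment. Between 77.1% and 82.9% of the low counts (1 to 49) in a library were even numbers, so the limits are too low if fragments were counted in pairs, which was not tested. Ren1 did not pass the filter on low counts and was therefore not tested with the other members, so no difference in Ren1 could be detected at this depth. Without the filter its adjusted p in edgeR's quasi-likelihood test (Benjamini-Hochberg) lay between 0.692 and 1 over the 5 comparisons.

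Of genes known from the renin-producing juxtaglomerular cells, several are also expressed by other kidney cells. Akr1b7, an enzyme gene of the renin lineage, had 30.5, 21.4 and 16.0 CPM in Ajcl baseline and 24.9, 12.3 and 16.5 CPM in ByJcl baseline. At Day 5 it had 17.3, 21.8 and 17.4 CPM in Ajcl and 31.6, 78.1 and 9.60 CPM in ByJcl. Akr1b7 was highest in ByJcl Day 5 replicate 2, the library with the most Ren1 counts, but the 3 libraries with 0 Ren1 counts had 9.60, 16.0 and 17.3 CPM of Akr1b7, and Ajcl Day 5 replicate 3, with 8 Ren1 counts, had 17.4 CPM. Gja5, the connexin of these cells and of arterial endothelium, ranged from 179 to 354 CPM. The summed level of the 6 markers of these cells ranged from 839 to 932 CPM in Ajcl baseline, 862 to 1050 in ByJcl baseline, 789 to 892 in the tested Ajcl Day 5 libraries and 834 to 971 in ByJcl Day 5, and was 718 CPM in the library left out. Most of this sum came from Adcy6, a widely expressed adenylyl cyclase gene (365 to 575 CPM over the 12 libraries), and from Gja5, so it is not a measure of juxtaglomerular cells alone. In bulk RNA, fewer cells of a type and less RNA per cell cannot be told apart. The Ren1 transcript of 1592 bases had no match longer than 69 bases elsewhere on chromosome 1 of GRCm39, and the rest of the build was not searched. The row of Ren2, the close copy of renin that some mouse strains carry, held 0 counts in all 12 libraries. That row cannot show whether reads were lost between the 2 genes, because where Ren2 lies in the build was not examined. How reads shared by 2 genes were counted is not given in the sources used here, so the Ren1 level is uncertain in that respect.

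Agt (chr8:125279301-125296716, minus strand, GRCm39) was likewise low. Its counts were 12, 10 and 4 in Ajcl baseline, 8, 10 and 14 in ByJcl baseline, 2, 8 and 14 in Ajcl Day 5 and 16, 26 and 0 in ByJcl Day 5. All 4 groups overlapped, and the highest and the lowest library both belonged to ByJcl Day 5. The mean level was 0.191 ± 0.0974 CPM (SD, n = 3) in Ajcl baseline, 0.212 ± 0.0415 (n = 3) in ByJcl baseline, 0.229 ± 0.0742 (n = 2) in Ajcl Day 5 and 0.318 ± 0.301 (n = 3) in ByJcl Day 5. The log2 fold changes had standard errors of 0.93 to 1.43, and the adjusted p-values of the 5 comparisons lay between 0.758 and 0.977 (edgeR quasi-likelihood test, Benjamini-Hochberg). Exons of Cog2, a gene on the opposite strand that had 1300 to 2104 counts per library, cover 29.7% of the exonic length of Agt. The library kit keeps strand, but the strand setting of the counting is not given in the sources used here.

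The comparison of the 2 substrains before treatment asked whether ByJcl glomeruli differ from Ajcl glomeruli in these genes at the outset. None of the 5 tested members was called at an adjusted p below 0.05, where 0.159% of the 17002 tested genes were called (27 genes), and 0 members reached an unadjusted p below 0.05. DESeq2 called 0 members as well. The largest difference among the members in units of its error was that of Agtr1a.

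Agtr1a (chr13:30518942-30566850, plus strand, GRCm39), the angiotensin II receptor of mesangial and smooth muscle cells, had 206, 211 and 194 CPM in Ajcl baseline and 235, 236 and 225 CPM in ByJcl baseline. All 3 ByJcl libraries lay above all 3 Ajcl libraries. The log2 fold change was 0.21 (SE 0.13, 95% interval −0.07 to 0.50), with an adjusted p of 0.647 in edgeR's quasi-likelihood test. In the same comparison all 7 mesangial markers had positive log2 fold changes (median 0.19, 0 called, 0 at an unadjusted p below 0.05). Their summed levels were 2337 to 2598 CPM in Ajcl and 2501 to 2989 CPM in ByJcl. All 10 podocyte markers (median 0.22) and all 6 immune markers (median 0.92) were positive too. All 6 distal nephron markers (median −1.45) and all 13 proximal tubule markers (median −0.97) were negative. None of these was called, and the part of any of these cells in the Agtr1a difference was not tested. At Day 5 Agtr1a had 254, 261 and 283 CPM in Ajcl, the first being the library left out, and 326, 218 and 266 CPM in ByJcl. The 2 tested Ajcl Day 5 libraries lay inside the range of the ByJcl Day 5 libraries, and the substrains differed by −0.01 on the log2 scale (SE 0.15, adjusted p = 0.978, edgeR quasi-likelihood test).

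Relative to its own baseline, Agtr1a gave a log2 fold change of 0.43 in Ajcl (SE 0.15, 95% interval 0.11 to 0.75), with an unadjusted p of 0.0130 and an adjusted p of 0.316 (edgeR quasi-likelihood test). The Ajcl Day 5 libraries all lay above the Ajcl baseline libraries, and so did the library left out of the test. In ByJcl the log2 fold change was 0.20 (SE 0.13, 95% interval −0.09 to 0.49, adjusted p = 0.357, edgeR quasi-likelihood test). There the groups overlapped, with ByJcl Day 5 replicate 2 below all 3 ByJcl baseline libraries. In order of mean level, Ajcl Day 5 (272 ± 15.6 CPM, SD, n = 2) stood beside ByJcl Day 5 (270 ± 54.4, n = 3), followed by ByJcl baseline (232 ± 6.08, n = 3) and Ajcl baseline (204 ± 8.86, n = 3). The 2 Day 5 groups overlapped, and so did ByJcl Day 5 and ByJcl baseline, whereas the 2 baseline groups did not. Agtr1b, the second mouse gene for this receptor, had 0 to 16 counts per library.

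After ADR, the member that changed was Enpep. Enpep (chr3:129062824-129126369, minus strand, GRCm39) had 1497, 1831 and 1402 CPM in Ajcl baseline and 1929, 1458 and 1704 CPM in ByJcl baseline. On Day 5 it had 975, 1381 and 828 CPM in Ajcl, the first being the library left out, and 865, 606 and 649 CPM in ByJcl. All Day 5 libraries of either substrain lay below all 6 baseline libraries.

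In ByJcl, Enpep fell to 0.412 times its baseline level, a log2 fold change of −1.28 (SE 0.21, 95% interval −1.74 to −0.81) with an adjusted p of 0.00506 in edgeR's quasi-likelihood test. It was the 1 member called in this comparison, in which 10.6% of the tested genes were called (1800 of 17002) and 4.83% were called lower (822 genes). The mean level went from 1697 ± 235 CPM (SD, n = 3) to 707 ± 139 CPM (n = 3). Enpep was called under each of the 17 alternative settings of this comparison, with adjusted p-values from 9.0e-08 (DESeq2) to 0.0298 (without ByJcl Day 5 replicate 2).

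In Ajcl the log2 fold change of Enpep was −0.51 (SE 0.24, 95% interval −1.03 to 0.01), with an adjusted p of 0.524 in edgeR's quasi-likelihood test. The mean level was 1577 ± 226 CPM (SD, n = 3) at baseline and 1105 ± 391 CPM (n = 2) at Day 5, and the 2 Day 5 libraries were far apart. In this comparison 0 of the 5 tested members were called, where 0.312% of the tested genes were called (53 of 17002). Of the 5 members, 1 had an unadjusted p below 0.05, which was Agtr1a, and DESeq2 called 0. Over the alternatives the adjusted p of Enpep in Ajcl lay between 0.168 and 1. The log2 fold change was −0.92 without Ajcl Day 5 replicate 2 and −0.21 without replicate 3.

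Whether the response differed between the substrains was tested by the substrain by treatment interaction. For Enpep it was −0.77 on the log2 scale (SE 0.31, 95% interval −1.46 to −0.09), with an unadjusted p of 0.0304 and an adjusted p of 0.620 (edgeR quasi-likelihood test). None of the members was called, and 0% of all tested genes were called by edgeR; 1363 genes had an unadjusted p below 0.05, and DESeq2 called 23 genes, none of them a member. A different response of Enpep in the 2 substrains was therefore not established, although its fall passed the test in ByJcl and not in Ajcl. Without Ajcl Day 5 replicate 2 the interaction was −0.35, and without replicate 3 it was −1.06, with adjusted p-values of 0.987 and 0.258 (edgeR).

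Between the substrains at Day 5, Enpep had a log2 fold change of −0.64 in ByJcl relative to Ajcl (SE 0.23, 95% interval −1.15 to −0.13), with an unadjusted p of 0.0178 and an adjusted p of 0.274 (edgeR quasi-likelihood test). The groups overlapped, because the highest ByJcl library (865 CPM) exceeded the lowest tested Ajcl library (828 CPM). Of the 5 tested members 0 were called at Day 5, where 0.165% of the tested genes were called (28 of 17002). Enpep was the 1 member with an unadjusted p below 0.05, and DESeq2 called 0. Over the alternatives its adjusted p lay between 0.0804 and 0.988. The log2 fold change was −0.23 without Ajcl Day 5 replicate 2 and −0.95 without replicate 3. In order of mean level the groups ran from ByJcl baseline through Ajcl baseline and Ajcl Day 5 to ByJcl Day 5, and only the 2 baseline groups and the 2 Day 5 groups overlapped each other.

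**Figure D2:**
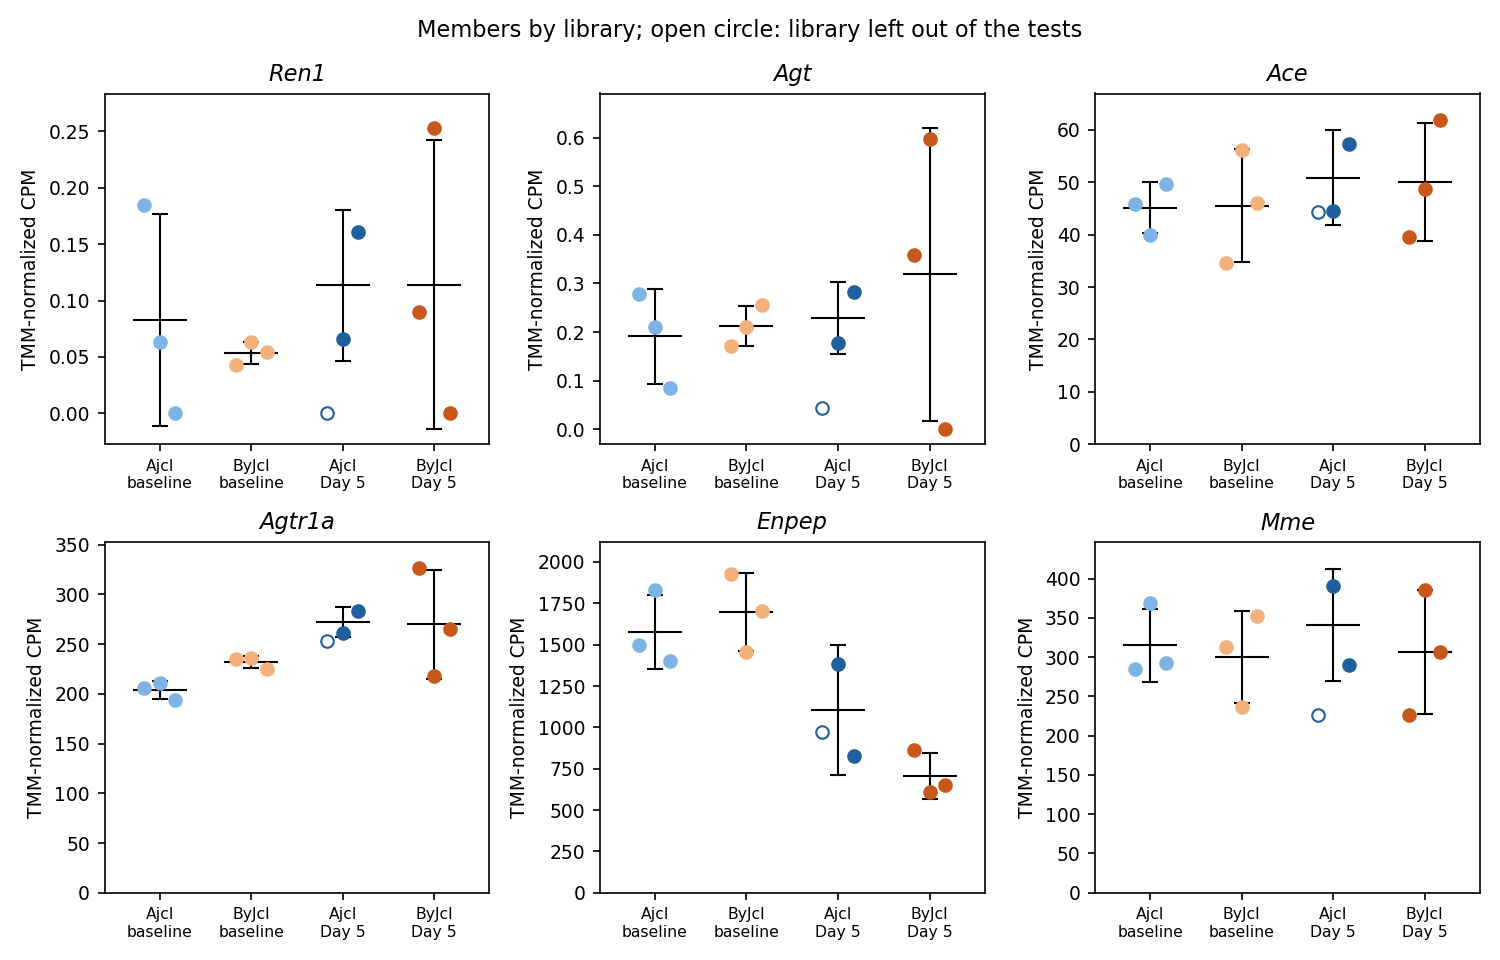
TMM-normalized CPM of the 6 members in each of the 12 libraries, by group; points are libraries, bars the mean ± SD of the tested libraries, and the open circle is Ajcl Day 5 replicate 1, which was left out of the tests. Enpep libraries at Day 5 (606 to 1381 CPM) lie below all baseline libraries (1402 to 1929 CPM), while Ren1 and Agt stay below 1 CPM.

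**Figure D3:**
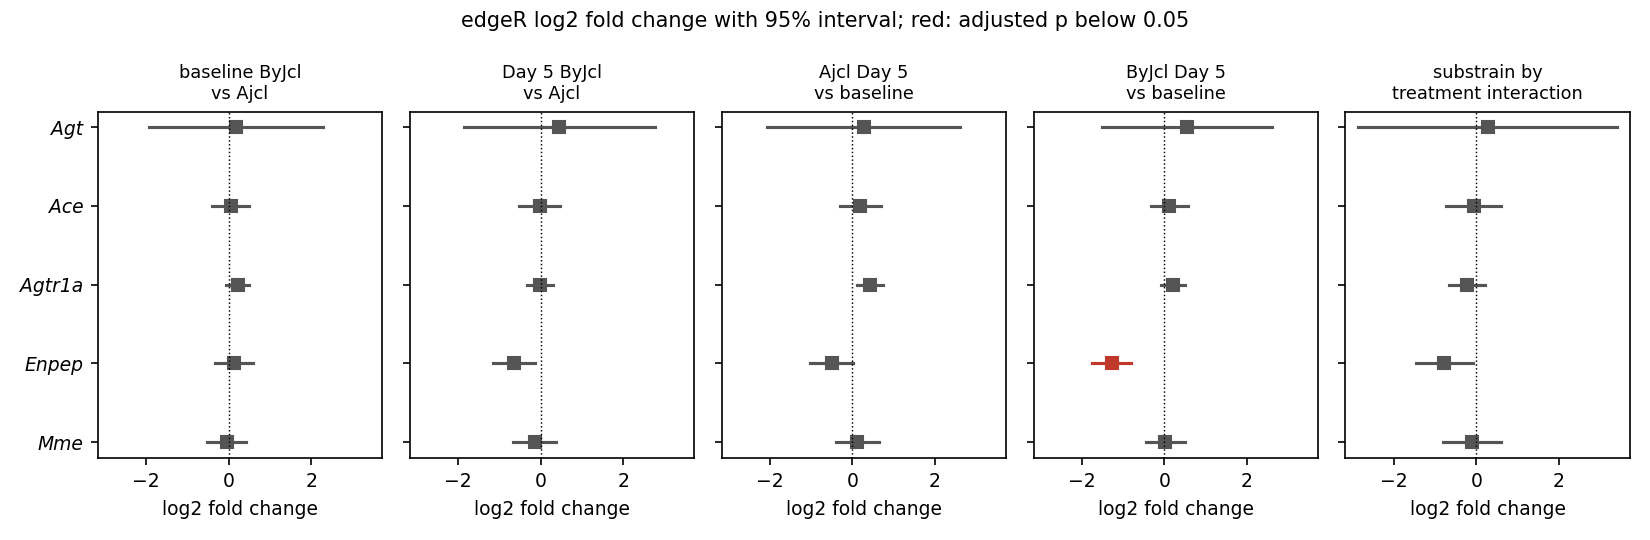
edgeR log2 fold changes of the 5 tested members in the 5 comparisons, with 95% intervals as lines; red marks an adjusted p below 0.05. The fall of Enpep in ByJcl (−1.28) is the 1 red point, and the intervals of Agt are the widest.

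The podocyte markers moved with Enpep. In ByJcl, 10 of 10 podocyte markers were called lower at Day 5, with a median log2 fold change of −1.20 against 0.01 over all tested genes. In Ajcl 0 of 10 were called, 3 had an unadjusted p below 0.05, and the median was −0.42 against −0.01 over all tested genes. In the interaction all 10 were negative, with a median of −0.87 against 0.003 over all tested genes. There 0 were called, and 9 had an unadjusted p below 0.05 (edgeR quasi-likelihood test). The summed level of the 10 markers ranged from 15242 to 20743 CPM in Ajcl baseline, 18884 to 21848 in ByJcl baseline, 10616 to 15546 in the tested Ajcl Day 5 libraries and 7506 to 11201 in ByJcl Day 5.

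Set against that sum, Enpep was 9.82%, 8.83% and 8.23% in Ajcl baseline and 8.83%, 7.72% and 8.66% in ByJcl baseline. At Day 5 it was 8.89% and 7.80% in the tested Ajcl libraries and 7.72%, 8.08% and 7.77% in ByJcl. The percentages of ByJcl baseline and ByJcl Day 5 overlapped, as did those of Ajcl baseline and Ajcl Day 5, while those of Ajcl baseline lay above those of ByJcl Day 5. The means were 8.40% ± 0.596 (SD, n = 3) in ByJcl baseline and 7.86% ± 0.193 (n = 3) in ByJcl Day 5. In the library left out it was 10.2%. Of the other marker lists in the ByJcl response, 2 of 8 endothelial markers (Ehd3 and Flt1) and 1 of 6 juxtaglomerular markers (Adcy5) were called lower. In the other direction, 1 of 5 smooth muscle markers (Tagln), 1 of 7 mesangial markers (Serpine2) and 1 of 6 immune markers (Cd68) were called higher. The summed smooth muscle level was 558 to 585 CPM in ByJcl baseline and 691 to 844 CPM in ByJcl Day 5. Of the 13 proximal tubule markers 0 were called in the ByJcl response and 0 had an unadjusted p below 0.05 (10 negative, median −0.39). In the Ajcl response 11 of 13 proximal tubule markers were negative (median −0.35, 0 called, 0 at an unadjusted p below 0.05). The summed proximal tubule level was 712 to 3709 CPM in ByJcl baseline and 651 to 2604 CPM in ByJcl Day 5, which overlapped. The median r of Enpep with these 13 markers over the 11 libraries was 0.08. After the group means were removed it was −0.56 (range −0.62 to −0.31). The part of podocytes or of other cells in the fall of Enpep was not tested.

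**Figure D4:**
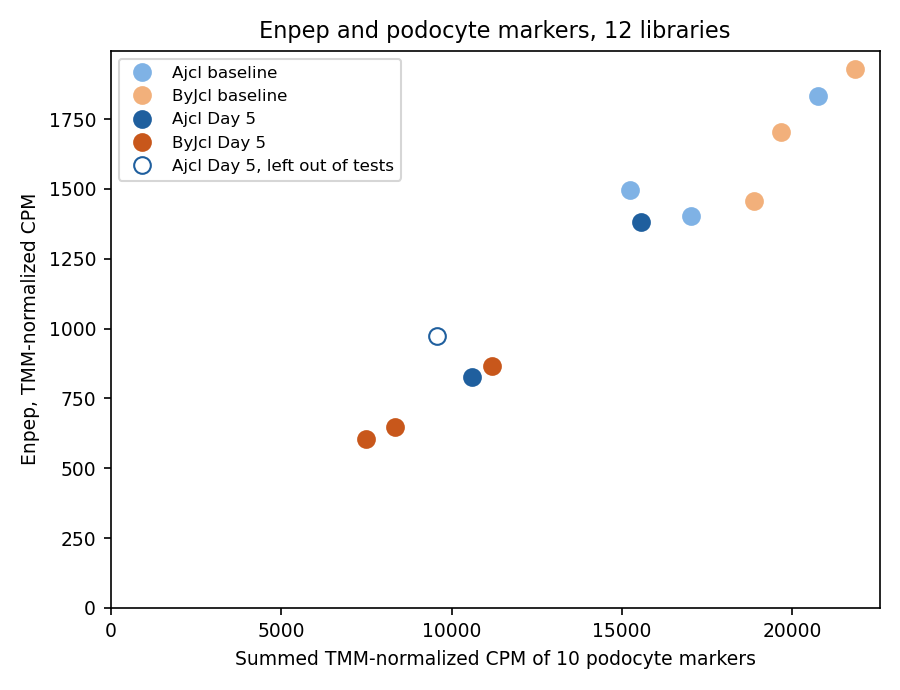
Enpep (vertical axis) against the summed level of 10 podocyte markers (horizontal axis), both in TMM-normalized CPM, in the 12 libraries; colours mark the groups and the open circle is the library left out of the tests. The libraries with a low podocyte sum are also those with low Enpep, with ByJcl Day 5 at the lower left (606 to 865 CPM).

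Across the 11 tested libraries, the Pearson correlation of log2(CPM + 1) between Enpep and the podocyte markers ranged from 0.96 to 0.98. Of all tested genes, Tmem150c (r = 0.992), Myom2 (0.991) and Cyp27a1 (0.991) were most like Enpep over these 11 libraries. With all 12 libraries their r was 0.991, 0.982 and 0.971, and 1 of them, Tmem150c, stayed among the 3 highest. In total 326 of 17001 genes had an r above 0.9 with it over the 11 libraries. These points share the split between baseline and Day 5. After the group means were removed, the r of Enpep with the podocyte markers ranged from 0.80 to 0.94.

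Mme, the other peptidase with known podocyte expression, did not follow. Mme (chr3:63148889-63293451, plus strand, GRCm39) had 285, 369 and 293 CPM in Ajcl baseline and 312, 236 and 352 CPM in ByJcl baseline. On Day 5 it had 226, 391 and 290 CPM in Ajcl, the first being the library left out, and 227, 386 and 307 CPM in ByJcl. All 4 groups overlapped, and the spread within each group was larger than the differences between their means. In ByJcl the log2 fold change of Mme at Day 5 was 0.02 (SE 0.21, 95% interval −0.45 to 0.49), with an adjusted p of 0.971 in edgeR's quasi-likelihood test. The interval of Mme in this contrast did not reach that of Enpep (−1.74 to −0.81). In Ajcl the log2 fold change of Mme was 0.12 (SE 0.24, adjusted p = 0.917, edgeR quasi-likelihood test). The substrains differed by −0.04 at baseline (SE 0.21) and by −0.15 at Day 5 (SE 0.24) on the log2 scale, with adjusted p-values of 0.964 and 0.808 (edgeR). The median r of Mme with the 10 podocyte markers over the 11 libraries was 0.02, and the genes most like it were Thoc2 (r = 0.921), Dgkg (0.894) and Sos2 (0.871). With all 12 libraries 2 of these 3, Thoc2 and Dgkg, stayed among the 3 highest.

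Ace (chr11:105858469-105880790, plus strand, GRCm39), the enzyme that makes angiotensin II, is known from endothelium and the proximal tubular brush border. It had 45.8, 39.9 and 49.6 CPM in Ajcl baseline and 34.6, 56.1 and 45.9 CPM in ByJcl baseline. On Day 5 it had 44.3, 44.5 and 57.2 CPM in Ajcl, the first being the library left out, and 39.5, 48.8 and 61.8 CPM in ByJcl. All groups overlapped. The log2 fold change of Ace after ADR was 0.19 in Ajcl (SE 0.22, 95% interval −0.30 to 0.68) and 0.12 in ByJcl (SE 0.20, 95% interval −0.32 to 0.57), with adjusted p-values of 0.850 and 0.746 (edgeR quasi-likelihood test). Between the substrains it was 0.04 at baseline (SE 0.20, adjusted p = 0.959, edgeR) and −0.02 at Day 5 (SE 0.22, adjusted p = 0.976, edgeR). The median r of Ace with the 13 proximal tubule markers was 0.63 over the 11 libraries, and 0.81 after the group means were removed. With the 10 podocyte markers it was −0.49. The genes most like Ace were Abhd15 (r = 0.935), Brap (0.904) and C4b (0.890). With all 12 libraries the r of Abhd15 was 0.709, and the other two stayed among the 3 highest. Gm11651, a non-coding gene on the opposite strand that covers 17.0% of the exonic length of Ace, had at most 4 counts in a library.

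For Agtr1a, the median r over the 7 mesangial markers was 0.61 (range 0.09 to 0.80). After the group means were removed it was 0.61 (range 0.21 to 0.88). With the 13 proximal tubule markers the median was −0.47, and −0.49 after this removal. With the podocyte markers it was −0.38, and turned to 0.39 after the group means were removed. The genes most like it over the 11 libraries were Ppp2r5d (r = 0.933), Parp12 (0.918) and Mmp17 (0.915). With all 12 libraries 0 of these 3 stayed among the 3 highest, and the r of Ppp2r5d was 0.654. For Agt, whose counts are sparse, they were Irf2bp2 (r = 0.913), Hcrtr1 (0.903) and Snhg6 (0.898). With the library left out added back, the r of Snhg6 was 0.305, and 1 of these 3 genes, Hcrtr1, stayed among the 3 highest. With 11 points and 17001 genes such values are descriptions only.

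Of 24 further genes of angiotensin peptide handling and signalling, 18 passed the filter on low counts. The other 6 genes, among them the type 2 receptor gene Agtr2 and the mast cell chymase genes Cma1 and Mcpt4, were too low to test. In the ByJcl response 2 of the 18 were called, 1 higher and 1 lower, against 10.6% of all tested genes. In each of the other 4 comparisons 0 of the 18 were called by edgeR, with 1 to 3 genes at an unadjusted p below 0.05. The share called was thus near that of all tested genes.

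Prcp, a lysosomal carboxypeptidase that removes the last residue of angiotensin II, rose in ByJcl. It had 11.1, 11.4 and 13.1 CPM in ByJcl baseline and 18.4, 17.6 and 18.7 CPM in ByJcl Day 5. The groups did not overlap, and the log2 fold change was 0.61 (SE 0.17) with an adjusted p of 0.0494 in edgeR's quasi-likelihood test. In Ajcl it had 15.3, 11.8 and 14.1 CPM at baseline and, in the 2 tested libraries, 11.3 and 17.8 CPM at Day 5, a log2 fold change of 0.10 (SE 0.19).

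Nr3c2, the mineralocorticoid receptor, through which aldosterone acts downstream of angiotensin II, fell in ByJcl. It had 27.7, 23.7 and 27.1 CPM in ByJcl baseline and 21.6, 14.0 and 19.7 CPM in ByJcl Day 5. These groups did not overlap either, and the log2 fold change was −0.52 (SE 0.15) with an adjusted p of 0.0491 in edgeR's quasi-likelihood test. In Ajcl Nr3c2 had 24.7, 27.1 and 27.4 CPM at baseline and 28.4 and 27.0 CPM in the tested Day 5 libraries. Between the substrains at Day 5 its log2 fold change was −0.58 (SE 0.16), with an adjusted p of 0.177 by edgeR and 0.0446 by DESeq2. In the same comparison all 6 distal nephron markers (median −1.46, 0 called, 3 at an unadjusted p below 0.05) and all 10 podocyte markers (median −0.66, 0 called, 7 at an unadjusted p below 0.05) had negative log2 fold changes. The summed level of the distal nephron markers was 839 to 1141 CPM in the tested Ajcl Day 5 libraries and 102 to 527 CPM in ByJcl Day 5, and its part in the Nr3c2 values was not tested. In the ByJcl response 5 of the 6 distal nephron markers were negative (median −0.17, 0 called). Both calls in ByJcl lay just under the threshold. With all 12 libraries neither gene was called, nor without any of the 3 ByJcl baseline libraries, Ajcl baseline replicates 2 and 3, or ByJcl Day 5 replicates 2 and 3. Without a filter on low counts neither was called, and with RLE size factors or the replicate block Prcp was called and Nr3c2 was not. Nr3c2 was also lost without Ajcl baseline replicate 1 or either tested Ajcl Day 5 library, and Prcp without ByJcl Day 5 replicate 1.

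Anpep, Atp6ap2 and Lnpep gave no call, and their ranges here are over the 11 tested libraries. Anpep (aminopeptidase N), another brush border peptidase, ranged from 8.10 to 37.2 CPM, with log2 fold changes of −0.57 (SE 0.39) in ByJcl relative to Ajcl at baseline and −0.34 (SE 0.39) in the ByJcl response. Atp6ap2, the prorenin receptor, ranged from 83.1 to 134 CPM (161 CPM in the library left out), with −0.21 (SE 0.14) and 0.09 (SE 0.14) in the same 2 comparisons. Lnpep, the aminopeptidase that binds angiotensin IV, ranged from 52.6 to 155 CPM (34.5 CPM in the library left out), with 0.28 (SE 0.28) in both comparisons. The adjusted p-values of these 3 genes lay between 0.571 and 0.994 over the 5 comparisons in edgeR's quasi-likelihood test.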

How the data were processed

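RNA-seq was measured in 12 libraries of isolated glomeruli, grouped by substrain and time from the labels. The deposited values are whole-number counts per gene, neither normalized nor pooled; the submitters' processing notes name Trimmomatic, STAR and featureCounts as the tools and GRCm39 as the build. The gene annotation is not given in the sources used here. The 2 times were deposited as 1 table each, and any difference between the tables and the effect of ADR cannot be told apart. All libraries carry the same batch label.

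Counts were analysed in R 4.3.3 with edgeR 4.0.16. filterByExpr with the 4 groups kept 17002 genes; TMM scaling and glmQLFit with 1 coefficient per group over 11 libraries (7 residual degrees of freedom, common dispersion 0.0521) were followed by glmQLFTest for 5 contrasts. The submitters' library Ajcl Day 5 replicate 1 was left out, as in the study. P-values were adjusted by Benjamini-Hochberg over all tested genes and called below 0.05. SEs are the log2 fold change divided by the root of F. Levels use TMM factors from all 12 libraries. DESeq2 1.42.0, RLE size factors, no filter, a filter of 1 CPM in 3 libraries, all 12 libraries, a replicate block, libraries of 1 time alone and leaving out each library in turn were alternatives. The test code was checked on simulated counts.

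The named genes are the 6 members in all contrasts, the other pathway genes called in any contrast with Anpep, Atp6ap2 and Lnpep, and the 3 tested genes with the highest r to each member; 1 further gene of the rule is not reported here. Genes beyond this rule (juxtaglomerular markers including Adcy5 and Adcy6, the markers Ehd3, Flt1, Tagln, Serpine2 and Cd68, overlapping genes, Ren2, Agtr1b, Agtr2, Cma1, Mcpt4) were named after their values were seen. The members and lists were chosen with earlier results of these data known. Positions and exon lengths come from GENCODE M39; matches of Ren1 were searched with BLAST+ 2.17.0. Low counts (1 to 49) were even numbers in 77.1% to 82.9% of cases per library, and replicates differed beyond sampling noise (chi-square per degree of freedom 44.6 to 271). Same-numbered libraries of different groups had correlations of deviations between −0.39 and 0.53 over 15 pairs. Differently numbered libraries were not compared, so this does not settle whether the numbers pair libraries. The main tests used no pairing. Tables and figures used Python 3.11.15, pandas 2.3.3 and matplotlib 3.10.9.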

Additional observations from a re-analysis of the deposited data

Results flagged for a closer look

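Agtr1a in Ajcl Day 5 replicate 1, a library outside the tests, was 253.5 CPM, above the highest Ajcl baseline library at 211 CPM. It lay below the 2 tested Ajcl Day 5 libraries (261 and 283 CPM).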

How the results depend on the processing

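The number of members called was the same under all alternatives run: 1 (Enpep, ByJcl response) and 0 in the other comparisons. The log2 fold changes that changed sign were all of members that were not called, and the cause was not tested. With all 12 libraries they were 0.040 for Ace, 0.020 for Agtr1a and 0.019 for Mme between the substrains at Day 5, −0.18 for Agt and −0.060 for Mme in the Ajcl response, and 0.026 for Ace and 0.090 for Mme in the interaction. Under the replicate block they were −0.010 for Agt and 0.078 for Ace at Day 5, −0.024 for Mme in the ByJcl response, and −0.36 for Agt and 0.052 for Ace in the interaction. The replicate block left Enpep in ByJcl called (log2 fold change −1.29, adjusted p = 0.00701, edgeR).

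Counts of all genes called moved more. DESeq2 called 101 genes at baseline, 555 at Day 5, 301 in the Ajcl response and 23 in the interaction. Without a filter there were 56 at Day 5 and 99 in the Ajcl response, and with all 12 libraries 72 at Day 5 and 1197 in the ByJcl response. The replicate block gave 26 in the Ajcl response, and the libraries of 1 time alone gave 15 at baseline and 6 at Day 5. Of the other pathway genes, DESeq2 called 1 at Day 5. In the ByJcl response RLE factors and the replicate block called 1 (Prcp, not Nr3c2), and no filter and all 12 libraries 0.

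Leaving out each library in turn gave 12 to 29 genes at baseline, 9 to 218 at Day 5, 11 to 180 in the Ajcl response, 680 to 2056 in the ByJcl response and 0 to 5 in the interaction, and 0 to 1 other pathway genes in the ByJcl response. The log2 fold changes then ranged, at baseline, from −0.18 to 0.51 for Agt, −0.13 to 0.21 for Ace and −0.18 to 0.10 for Mme. At Day 5 they ranged from −0.38 to 1.04 for Agt, −0.21 to 0.19 for Ace, −0.17 to 0.12 for Agtr1a and −0.34 to 0.077 for Mme. In the Ajcl response they ranged from −0.13 to 0.62 for Agt, −0.035 to 0.35 for Ace and −0.11 to 0.29 for Mme. In the ByJcl response they ranged from −0.28 to 1.15 for Agt, −0.047 to 0.30 for Ace and −0.18 to 0.20 for Mme. In the interaction they ranged from −0.56 to 0.89 for Agt, −0.23 to 0.16 for Ace and −0.30 to 0.14 for Mme. Those of Enpep kept their sign in all 5 comparisons, from −1.44 to −1.18 in the ByJcl response, −0.92 to −0.21 in the Ajcl response, −0.95 to −0.23 between the substrains at Day 5 and −1.06 to −0.35 in the interaction. Ajcl Day 5 rests on 2 libraries, and after 1 is left out the other is assumed to vary like the other groups. Ren1 and Agt had at most 11 and 26 counts per library, and Agt ran from 0 to 26 counts within ByJcl Day 5 alone.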
